A study of Mus musculus with 9 samples.

Results

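The genes of oxidative phosphorylation were followed here, that is the subunits and named assembly factors of respiratory complexes I to V that are encoded in the nucleus, together with the protein-coding genes of the mitochondrial genome. Members were chosen by symbol alone, from the families Ndufa, Ndufb, Ndufc, Ndufs, Ndufv, Sdh, Uqcr, Cox4 to Cox8 and Atp5 and from the mt-Nd, mt-Co, mt-Cytb and mt-Atp genes, with symbols ending in -ps left out (9 of them). This gave 114 of the 55341 annotated rows of each count table, 101 nuclear and 13 mitochondrial. The nuclear set held 41 subunits of complex I and 8 Ndufaf assembly factors, 4 subunits of complex II and 4 Sdhaf factors, 8 subunits of complex III, 18 subunits of complex IV and the supercomplex factor Cox7a2l, and 16 subunits of complex V and the coupling factor Atp5s. Taken by symbol, these nuclear subunits include the processed pseudogenes Ndufs6b, Ndufb4c and Ndufa11b under complex I and Cox6c2 under complex IV. The pseudogenes are kept in the counts and medians by complex below. The mitochondrial set held 7 subunits of complex I, 1 of complex III, 3 of complex IV and 2 of complex V.

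The series asks what loss of PCGF6 changes in the adult intestinal epithelium. PCGF6 is a Polycomb protein that defines a variant form of Polycomb repressive complex 1. The samples are small intestinal crypts of male mice (C57BL/6, 8 to 12 weeks old), and polyA RNA libraries were made by Smart-seq2, a full-length cDNA method, from 2 ng of RNA. There were 2 arms by Cre driver: AhCre, induced with beta-naphthoflavone (BNF), with 2 WT and 2 Pcgf6 KO libraries, and Villin-CreERT2, induced with tamoxifen and active in the intestinal epithelium, with 3 WT and 2 Pcgf6 KO libraries. The labels place the WT mice under the same driver and agent as the KO mice of their arm. The labels give the time after the agent as 15 days in some fields and 7 days in others, and one description line names BNF for the Villin libraries too. They do not say whether the WT mice carried Cre or a floxed allele, nor whether each library came from 1 mouse, so a p-value here measures the spread between these libraries, which may be technical.

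Oxidative phosphorylation couples the transfer of electrons from NADH and succinate to oxygen with the pumping of protons across the inner mitochondrial membrane, and ATP synthase uses the returning protons to make ATP. Most subunits are made from nuclear genes and imported, whereas a core set in complexes I, III, IV and V is made inside the organelle from mitochondrial DNA; complex II is wholly nuclear. In the intestinal epithelium, stem cells, progenitors and differentiated enterocytes are known to differ in how much they rely on this pathway.

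Sequences are shown at the points where they bear on the counts. In the mitochondrial genome, mt-Atp8 and mt-Atp6 overlap, so that reads within the shared stretch belong to both genes. On GRCm38 this stretch is chrM:7927-7969, on the plus strand, and the capitals mark the start codon of mt-Atp6 and the stop codon of mt-Atp8.
mt-Atp8/mt-Atp6 overlap: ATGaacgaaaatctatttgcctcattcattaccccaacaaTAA

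Nuclear genes of this pathway are textbook targets of the factors NRF1, NRF2 (an ETS factor) and YY1, and 2 members that differed between the WT groups (below) are shown for the motifs in their upstream region. RefSeq promoter windows (GRCm38.p6, 250 bases before to 50 after the start) matched 80 of the 101 nuclear members, with 85 windows. The 2 stretches below are the bases of such windows that lie outside annotated exons, printed 5′ to 3′ on the strand of the gene, with motif matches in capitals. Atp5l, the g subunit of ATP synthase, has its stretch at chr9:44920752-44920992 (minus strand), where the capitals mark, in order, the NRF1 core on the opposite strand, 240 bases before the start, the ETS motif on the opposite strand, 212 bases before it, and an E-box, 147 bases before it. Uqcrh, the hinge protein of complex III, has its stretch at chr4:116075072-116075268 (minus strand), where the capitals mark an ETS motif on the opposite strand, 10 bases before the start.
Atp5l: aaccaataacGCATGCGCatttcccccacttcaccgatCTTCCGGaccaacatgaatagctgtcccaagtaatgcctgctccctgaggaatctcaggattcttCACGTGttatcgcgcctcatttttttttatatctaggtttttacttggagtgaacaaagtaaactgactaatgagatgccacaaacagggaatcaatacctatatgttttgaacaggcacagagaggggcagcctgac
Uqcrh: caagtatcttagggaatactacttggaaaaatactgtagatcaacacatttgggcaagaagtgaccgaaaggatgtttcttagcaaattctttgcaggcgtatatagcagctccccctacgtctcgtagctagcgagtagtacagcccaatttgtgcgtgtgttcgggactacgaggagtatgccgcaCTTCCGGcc

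Over both strands, the NRF1 core GCGCATGC was found in 14.1% of the members' 85 windows and in 2.71% of all 32851 windows, and the looser form GCGCNTGC, which contains the core, in 36.5% and 9.61%. The 12 members with the core were Atp5g2, Atp5k, Atp5l, Cox6a1, Ndufa11, Ndufa6, Ndufa8, Ndufaf4, Ndufaf5, Sdhb, Uqcr11 and Uqcrc1, which belong to all 5 complexes. The ETS motif CCGGAAG was found in 24.7% against 8.86%, the YY1 motif AAGATGGC in 12.9% against 2.75% and the E2F motif TCCCGC in 35.3% against 20.0%. The palindromic E-box CACGTG was found in 8.24% of the members' windows and 7.15% of all. These matches describe letters in a window, not bound sites.

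Libraries held 6455098 to 12377921 counts, fewer in the Villin arm (at most 8339149) than in the AhCre arm (at least 9263993). Pcgf6 itself gave 60, 99 and 49 counts in the WT and 15 and 16 in the KO libraries of the Villin arm, and 219 and 136 counts against 89 and 68 in the AhCre arm, so the KO libraries were lower than the WT libraries of their arm, less clearly under AhCre. Levels below are CPM, counts scaled to a common library total, with library sizes adjusted by TMM, edgeR's composition factor, which ran from 0.684 (Villin KO 1) to 1.27. Epithelial markers were high in every library (10 genes, 7970 to 20930 CPM summed) and stromal, muscle and endothelial markers low (15 genes, 31.3 to 219 CPM), while lymphocyte and plasma cell markers ranged from 113 to 2824 CPM. Absorptive enterocyte markers (22 genes) summed to 13728 CPM or more in each library. The 14 crypt base stem cell markers summed to at most 3050 CPM. Sums over different genes do not measure shares of cell types, so the content of differentiated cells in these crypts was not measured. Villin WT 2 stood apart from the other 2 WT libraries of its arm in most of the values below, and values without it are given where it decides a count. In bulk RNA, a lower share of a cell type and less RNA per cell cannot be told apart.

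All 5 complexes were abundantly expressed. Of the 101 nuclear members, 73 averaged over 100 CPM and 11 under 10 CPM. Divided by transcript length, the subunits of ATP synthase had a median of 811 CPM per kb, led by its catalytic beta subunit Atp5b at 1464, and those of complex III had a median of 756, led by Uqcrh at 1450. The medians were 582 CPM per kb for complex IV, 518 for complex II and 331 for complex I. Cox4i1, the ubiquitous form of subunit 4 of cytochrome c oxidase, was the highest nuclear member at 2205 CPM per kb. Assembly factors, which help build the complexes without staying in them, were lower, at 22.4 to 223 CPM per kb for the Ndufaf genes and 5.50 to 96.1 for the Sdhaf genes. Of the 9 members listed as tissue-restricted forms, 5 gave few or no counts: Cox7b2 and Cox8b at most 1 in any library, Cox4i2 and Cox8c at most 3 and Ndufa4l2 at most 13. Cox6a2 gave 3 to 19 counts and Cox6b2 28 to 71. The other 2 were well expressed, with Cox7a1, known as the heart and muscle form of subunit 7a, at 74.0 to 484 CPM and Atp5g1, a gene for subunit c of ATP synthase, at 193 to 610 CPM. In the mitochondrial genome, mt-Co1 (3823 CPM per kb), mt-Nd1 (3446) and mt-Cytb (1974) led.

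Of the 114 members, 107 passed the filter on low counts, 96 nuclear and 11 mitochondrial. The 7 that did not were Cox4i2, Cox7b2, Cox8b, Cox8c, Ndufa4l2, mt-Atp8 and mt-Nd4l.

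The nuclear members' shares overlapped between the KO and WT libraries of each arm, in the Villin arm through Villin WT 2 alone. The mitochondrial members took a lower share in Villin KO than in Villin WT. In the Villin arm, nuclear members made up 5.05%, 3.31% and 5.25% of all counts in the WT libraries and 4.45% and 4.77% in the KO libraries. In the AhCre arm they made up 3.24% and 3.34% in WT against 3.13% and 3.63% in KO. Each arm's KO values lay inside or across its WT range. In the Villin arm both KO libraries lay below Villin WT 1 and Villin WT 3. Without Villin WT 2 the log2 difference there was -0.16. Mitochondrial members made up 2.62%, 2.20% and 1.98% of counts in the Villin WT libraries against 1.54% and 1.50% in KO, and 1.47% and 1.14% in the AhCre WT libraries against 1.19% and 1.19% in KO. Both Villin KO libraries lay below all 3 Villin WT libraries, and the AhCre KO libraries lay between the 2 AhCre WT libraries. Wilson 95% intervals on these shares, which cover counting error only, were narrow (1.53% to 1.55% for Villin KO 1), so the spread between libraries and not depth limited the comparison.

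The log2 difference of the mitochondrial share, Villin KO minus WT, was -0.56 (pooled SD 0.166, n = 2 and 3; two-sided exact permutation p = 0.1, the smallest p this design allows; 0.3 after Benjamini-Hochberg adjustment over 12 such tests). The AhCre difference was -0.12 (pooled SD 0.183, n = 2 and 2; exact p = 1, where the smallest possible is 0.333). Over both drivers, permuting within each, it was -0.34 (exact permutation p = 0.0833, adjusted p = 0.3). The log2 ratio of mitochondrial to nuclear counts was -0.95, -0.59 and -1.41 in the Villin WT libraries and -1.53 and -1.67 in the KO libraries, and -1.14 and -1.55 against -1.39 and -1.61 in the AhCre arm. The Villin groups did not overlap, with a difference of -0.61 (exact permutation p = 0.2, adjusted p = 0.48). The nuclear share differed by 0.05 in Villin and 0.03 in AhCre (exact permutation p = 1 for both). None of the 12 tests passed adjustment.

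2 measurements stand beside the lower mitochondrial share in Villin KO. The difference depends on the scale: per TMM-scaled library, the mitochondrial members summed to 30718, 19795 and 24635 CPM in Villin WT and 22599 and 19351 CPM in Villin KO, which overlap, with a log2 difference of -0.24 (exact permutation p = 0.4). The mitochondrial ribosomal RNAs, from the same genome, took 2.10%, 1.83% and 2.91% of counts in Villin WT against 2.48% and 1.89% in the KO, with overlap. Under AhCre they took 1.33% and 0.916% in WT and 1.84% and 1.55% in KO, higher in both KO libraries.

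**Figure D1:**
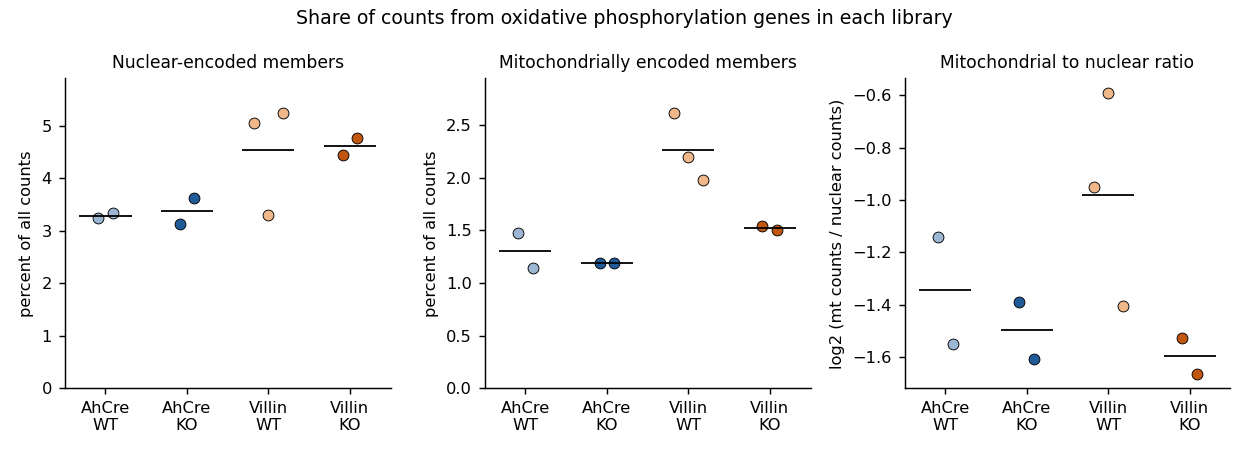
Share of each library's counts from the 101 nuclear members (left, percent) and the 13 mitochondrially encoded members (middle, percent), and the log2 ratio of mitochondrial to nuclear counts (right), with 1 point per library and a line at the group mean. The Villin KO points lie at 1.50% and 1.54% in the middle panel, below the 3 Villin WT points at 1.98% to 2.62%. The nuclear shares overlap within each driver, in the Villin arm through Villin WT 2 alone.

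In Villin KO crypts several catalytic and core subunits stood higher than in WT, without passing adjustment over all genes. Among them were the 4 nuclear members with the longest coding sequences, Ndufs1, Sdha, Atp5a1 and Atp5b. None of the 107 tested members was called in either direction at an adjusted p under 0.05 by edgeR's quasi-likelihood test, in a comparison where 6.21% of the 16250 tested genes were called (3.33% higher, 2.88% lower). At an unadjusted p under 0.05 there were 7 (5 nuclear higher, Ndufaf6 and mt-Cytb lower), against 26.1% of all genes at that level (10.7% higher, 15.4% lower). DESeq2 called 6 members and limma-voom 0. The 6 were Ndufs1, Ndufv1, Sdha, Atp5a1 and Atp5b, higher, and Ndufaf6, lower.

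Sdha, the flavoprotein that oxidises succinate in complex II (chromosome 13, 74322254 to 74350280, minus strand), read 401, 749 and 576 CPM in Villin WT and 1174 and 1076 CPM in Villin KO. On this TMM scale the KO libraries were above every WT library, at a log2 difference of 0.97 (SE 0.32, edgeR adjusted p = 0.0846). Ndufs1, the largest subunit of complex I and a carrier of iron-sulfur clusters (chromosome 1, 63143596 to 63176833, minus strand), read 99.4, 229 and 181 CPM in WT and 326 and 357 CPM in KO, a log2 difference of 1.01 (SE 0.34, edgeR adjusted p = 0.0920). Ndufv1, the subunit that binds NADH, read 550, 412 and 407 CPM in WT and 810 and 780 CPM in KO (log2 difference 0.80, SE 0.29, edgeR adjusted p = 0.106). For both genes the 2 groups were separate on the TMM scale. In counts, Sdha gave 5729 in Villin KO 1 and 5842 in Villin WT 2, and Ndufs1 gave 1592 and 1787. Villin KO 1 has the larger library total (7146764 against 7013456). Without the TMM factors (0.684 and 1.12) the groups of Sdha and Ndufs1 therefore overlap, and those of Ndufv1 stay separate.

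The catalytic head of ATP synthase was also separated, with or without TMM factors. Atp5a1, its alpha subunit, read 1571, 1937 and 1846 CPM in Villin WT and 3489 and 3216 CPM in KO (log2 difference 0.91, SE 0.29, edgeR adjusted p = 0.0787). Atp5b read 2797, 2346 and 3025 CPM in WT and 4571 and 4109 CPM in KO (log2 difference 0.67, SE 0.30, edgeR adjusted p = 0.176). In complex III the core protein Uqcrc1 read 1791, 1128 and 1226 CPM in WT and 2018 and 2106 CPM in KO (0.58), and the Rieske iron-sulfur protein Uqcrfs1 1064, 595 and 1014 against 1402 and 1373 CPM (0.64). Cox5a of complex IV read 727, 310 and 619 CPM in WT and 967 and 808 CPM in KO (0.69). Uqcrc1 gave 9851 counts in Villin KO 1 and 9967 in Villin WT 1, which has the smaller library total (6535579 against 7146764). Without TMM factors its groups therefore overlap, while those of Uqcrfs1 and Cox5a stay separate. In all, 9 of 96 nuclear members had KO libraries wholly above the WT libraries on the TMM scale. This compares with 14.5% of all genes that lay wholly higher, so the count itself was not above the background.

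Several other abundant subunits did not share this separation. Cox4i1 read 2486, 1081 and 3109 CPM in Villin WT and 2600 and 2206 CPM in KO, inside the WT range (log2 difference 0.11). Sdhb, the iron-sulfur subunit of complex II, read 1496, 662 and 976 CPM in WT and 1364 and 1440 CPM in KO (0.42). Ndufa4, counted with complex I by its symbol though now assigned to complex IV, read 1001, 447 and 1403 CPM in WT and 367 and 770 CPM in KO (-0.74). For all 3 genes, Villin WT 2 lay closer to the AhCre libraries than to the other 2 Villin WT libraries.

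**Figure D2:**
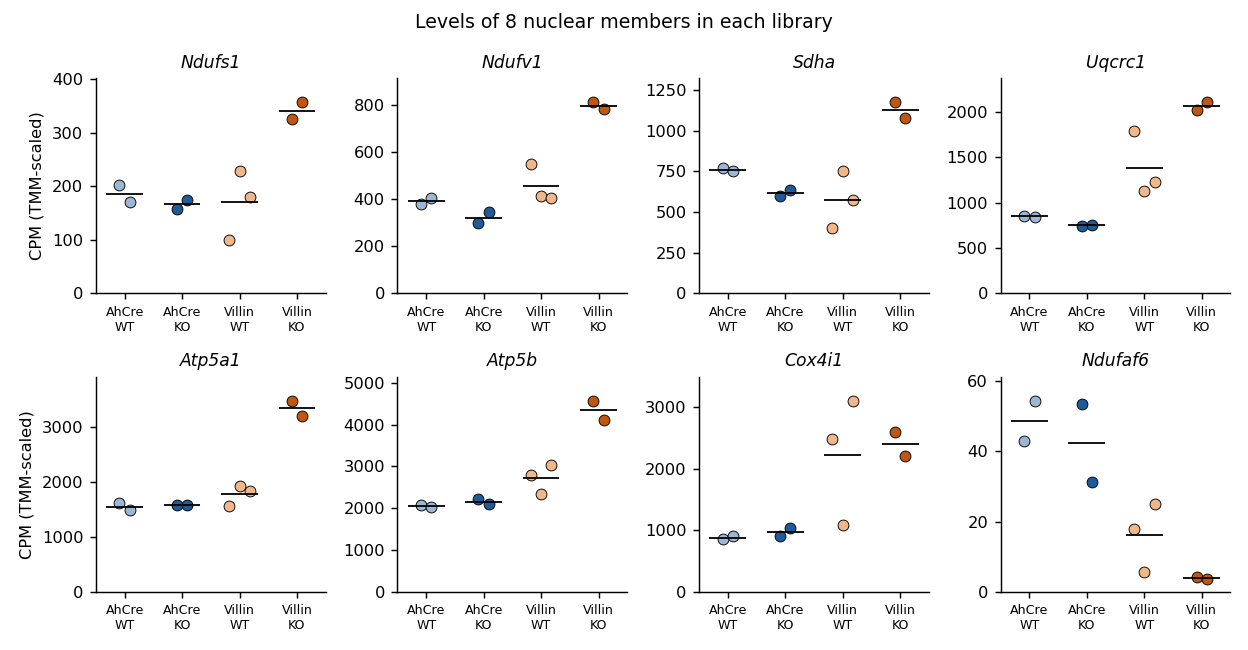
TMM-scaled CPM of 8 nuclear members, with 1 point per library, a line at the group mean and a separate vertical axis from 0 for each gene. The 2 Villin KO points stand above the 3 Villin WT points for Ndufs1, Ndufv1, Sdha, Uqcrc1, Atp5a1 and Atp5b, not for Cox4i1. They stand below them for Ndufaf6 (4.10 and 3.55 CPM against 5.64 to 24.9 CPM). Without TMM factors the Villin groups overlap for Ndufs1, Sdha and Uqcrc1.

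Ndufaf6, an assembly factor of complex I (chromosome 4, 11051045 to 11076205, minus strand), went the other way. It gave 99, 44 and 129 counts in Villin WT against 20 and 23 in the KO, or 17.8, 5.64 and 24.9 CPM against 4.10 and 3.55 CPM. Both KO libraries were lowest, at a log2 difference of -2.06 (SE 0.57, edgeR adjusted p = 0.0513). Sdhaf1, an assembly factor of complex II, had a difference of -1.18 and an unadjusted edgeR p of 0.108, but 69.6% of its exon bases overlap E130208F15Rik, so its reads are uncertain. Cox6b2, the testis form of subunit 6b, was the other nuclear member with KO libraries wholly lower, at 28 and 30 counts against 49, 49 and 49 (log2 difference -0.66). These 2 of 96 nuclear members compare with 19.8% of all genes that lay wholly lower.

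Leaving out Villin WT 2 brought 4 members under the edgeR threshold: Sdha (1.32, adjusted p = 0.0357), Atp5a1 (1.08, 0.0370), Ndufs1 (1.40, 0.0410) and Ndufaf6 (-2.37, 0.0304). The share of all genes called in that fit is not given here, so these 4 are not read against a background. Leaving out either of the other 2 WT libraries, or Villin KO 1, called none. Leaving out Villin KO 2 called only Ndufa4l2, an isoform at 0 counts in all 3 Villin WT libraries and at 13 and 2 counts in KO, which the low-count filter otherwise left out.

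By complex, the median log2 difference in Villin KO was 0.21 for complex I (34 of 40 above 0), 0.39 for complex II (4 of 4), 0.10 for complex III (4 of 8), 0.29 for complex IV (13 of 14) and 0.20 for complex V (14 of 16). It was -0.20 for the assembly factors. Over all 96 nuclear members the median was 0.19, with 74 above 0, while the 16250 genes had a median of -0.18 and 41.4% above 0. The scale moves these values: without TMM factors the median of all genes went to -0.51 and that of the nuclear members to -0.08, which turns its sign, and with DESeq2 size factors the values were -0.08 and 0.30. The nuclear median lay above that of all genes under each of the 3 scalings. The 11 mitochondrial members lay near the gene-wide median instead, at -0.12 under TMM, -0.47 without it and 0.00 with DESeq2 size factors. A change of scaling shifts all genes of a library alike, so the distances between these medians were bound to stay nearly the same. The 3 scalings are thus not separate support for either order.

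Markers of cell types moved in the same libraries, in a comparison where 3.33% of all genes were called higher and 2.88% lower. Absorptive enterocyte markers summed to 44521, 30607 and 47480 CPM in Villin WT and 93800 and 64662 CPM in Villin KO, with 11 of 22 called higher. Proliferation genes summed to 1307, 1649 and 1568 CPM in WT and 391 and 1204 CPM in KO, with 1 of 20, Mki67, called lower. All 14 tuft cell markers were called higher, at 155, 112 and 223 CPM in WT and 4112 and 689 CPM in KO. Crypt base stem cell markers had 11 of 14 below 0, with 3 called lower and 1 higher, at 1433, 3050 and 2898 CPM in WT and 1595 and 2260 CPM in KO. Stromal, muscle and endothelial markers had 2 of 11 tested called higher, at 189, 31.3 and 35.1 CPM in WT and 183 and 219 CPM in KO. Myeloid markers had a median of 1.50 with 0 of 11 called, at 145, 36.9 and 164 CPM in WT and 126 and 853 CPM in KO, where Villin KO 2 alone was high. The part of all these in the members' levels was not tested, and these lists were chosen with results of these data known.

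Under AhCre no member was separated from the spread between libraries. Of the 107 tested members 0 were called by edgeR, 0 by DESeq2 and 0 by limma-voom, and 0 reached an unadjusted p under 0.05, in a comparison with 0.00615% of all genes called and 3.53% at an unadjusted p under 0.05 (1.81% higher, 1.72% lower). The nuclear median log2 difference was 0.11 (70 of 96 above 0, against 49.5% of all genes and a gene-wide median of -0.00) and that of the mitochondrial members -0.13. Wholly higher KO libraries were seen in 23 of 96 nuclear members and wholly lower ones in 13, against 23.4% and 25.1% of all genes.

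Complex II was lower in value in every subunit under AhCre. Sdha read 771 and 749 CPM in AhCre WT and 599 and 637 CPM in AhCre KO, and Sdhd, a membrane anchor, 584 and 557 against 447 and 517 CPM. Sdhb read 531 and 545 CPM in WT and 457 and 529 CPM in KO, and Sdhc, the other anchor, 245 and 269 against 237 and 232 CPM. The groups did not overlap in any of the 4, in a comparison where 25.1% of all genes lay wholly lower. The log2 differences, -0.13 to -0.30, were each smaller than their SE (0.35 to 0.40). The other complexes had medians above 0, from 0.10 for complex I to 0.21 for complex IV. In Villin KO all 4 complex II subunits were above 0, with a median of 0.39.

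Markers of cell types also differed between the AhCre groups, with no marker of these 3 lists called by edgeR. Over all genes, 23.4% lay wholly higher in KO and 25.1% wholly lower. Absorptive enterocyte markers summed to 17694 and 15736 CPM in WT and 13926 and 13728 CPM in KO, with 18 of 22 below 0 and 14 wholly lower. Paneth cell markers summed to 8106 and 7238 CPM in WT and 13570 and 14579 CPM in KO, with 11 of 11 wholly higher, and tuft cell markers to 210 and 210 against 1152 and 1075 CPM, with 14 of 14 wholly higher. Their part in the members' values was not tested.

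Ndufs1 read 202 and 171 CPM in AhCre WT and 158 and 174 CPM in KO (-0.16), and Ndufv1 380 and 404 against 298 and 344 CPM (-0.29). Atp5a1 read 1613 and 1499 CPM in WT and 1584 and 1583 CPM in KO (0.03). Ndufaf6 read 42.8 and 54.4 CPM in WT and 53.6 and 31.1 CPM in KO (-0.20). Of the 5 largest AhCre values, 4 belonged to low or copied genes, Cox6a2 (-0.78, on 3 to 10 counts a library) and the pseudogenes Cox6c2 (0.66), Ndufa11b (0.47) and Ndufb4c (0.46), which share sequence with their parent genes. The other was Cox7a1, which is neither. Cox7a1 read 121 and 141 CPM in WT and 74.0 and 115 CPM in KO (-0.47), below the WT range.

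**Figure D3:**
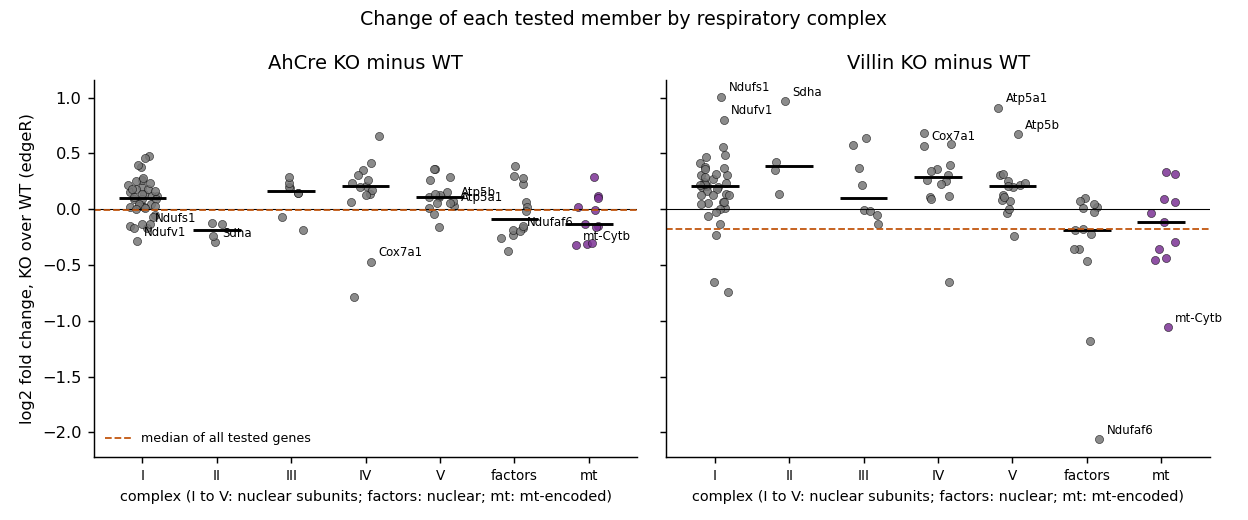
Log2 fold change of each tested member, KO over WT, under AhCre (left) and Villin (right). Columns hold nuclear subunits by complex, nuclear factors (assembly factors, Cox7a2l and Atp5s) and the mitochondrially encoded members (mt). Each point is a gene, black lines are group medians and the dashed line is the median of all 16250 tested genes, -0.00 under AhCre and -0.18 under Villin; in the Villin panel Ndufs1, Sdha and Atp5a1 lie near 1 and Ndufaf6 near -2.06.

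The difference between the 2 KO effects was tested directly and 0 of the 107 members passed (edgeR; 0.0738% of all genes did, 0.00615% with the higher value under AhCre and 0.0677% with the lower; DESeq2 and limma-voom also called 0). At an unadjusted p under 0.05 there were 4: Sdha (AhCre minus Villin -1.27, SE 0.48, edgeR adjusted p = 0.240), Ndufv1 (-1.09, 0.254), Ndufs1 (-1.17, 0.296) and Ndufaf6 (1.87, 0.267). At that level stood 15.9% of all genes, 9.55% with the higher value under AhCre and 6.32% with the lower. Of the nuclear members 42 of 96 had a higher value under AhCre, against 57.1% of all genes. The 2 comparisons share no library. Of the 96 nuclear members, 53 were above 0 under both drivers, 5 below 0 under both, 17 above 0 only under AhCre and 21 above 0 only under Villin, a share of 60.4% with the same sign against 46.1% over all genes. Since 70 of 96 were above 0 under AhCre and 74 of 96 under Villin, many like signs follow from the 2 medians alone. The share therefore does not show that the 2 KO effects agree gene by gene. Across the 96 nuclear genes the 2 sets of values had a Pearson correlation of -0.07.

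Within the mitochondrial genome, counts came almost wholly from 7 genes. mt-Co1, the catalytic subunit of cytochrome c oxidase, led in every library. The other 6 members, mt-Nd3, mt-Nd4l, mt-Co2, mt-Co3, mt-Atp6 and mt-Atp8, together gave 0.116% to 0.272% of the mitochondrial sum, at 0 to 200 counts per gene and library. Exact matches of 50-base windows to other annotated genes covered 100% of mt-Co2, 99.9% of mt-Co3, 99.5% of mt-Atp6, 98.8% of mt-Nd4l and 98.0% of mt-Nd3, chiefly nuclear copies of mitochondrial DNA such as Gm28661 (mt-Co2) and Gm28437 (mt-Co3). By contrast mt-Cytb, mt-Nd1, mt-Nd2, mt-Nd5 and mt-Nd6 had under 10% of windows shared. The intermediate cases were mt-Nd4 at 62.2% and mt-Co1 at 51.1%, so levels of the high-sharing genes are uncertain, and whether the counting discarded shared reads was not tested. mt-Atp8 shares no such window with other genes but is short and has the overlap shown above.

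mt-Cytb, the cytochrome b core of complex III (chromosome M, 14145 to 15288), had the largest log2 difference of the mitochondrial members in both arms. It read 6217, 3003 and 3252 CPM in Villin WT and 2276 and 1720 CPM in Villin KO, a log2 difference of -1.06 (SE 0.38, edgeR adjusted p = 0.109). Under AhCre it read 1100 and 1045 CPM in WT and 837 and 878 CPM in KO (-0.32, SE 0.41). The KO libraries lay below the WT libraries in both arms, and neither difference passed the test. Wholly lower KO libraries were seen in 4 of 11 tested mitochondrial members under AhCre and 2 of 11 under Villin. Over all genes, 25.1% lay wholly lower under AhCre and 19.8% under Villin. Without TMM factors the Villin value of mt-Cytb was -1.38 with an edgeR adjusted p of 0.0218.

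As a share of the mitochondrial sum, which needs no scaling between libraries, mt-Cytb took 20.2%, 15.2% and 13.2% in Villin WT, against 10.1% and 8.89% in the KO. It took 9.36% and 11.5% in AhCre WT and 8.52% and 9.16% in AhCre KO. KO lay below WT in both arms. mt-Nd2, a membrane subunit of complex I, went the other way in both arms, at 8.26%, 7.85% and 8.08% in Villin WT against 9.14% and 9.85% in KO and at 9.71% and 9.78% in AhCre WT against 11.2% and 11.6% in KO. The count ratio of mt-Cytb to mt-Nd2 was thus 2.45, 1.93 and 1.63 in Villin WT and 1.10 and 0.903 in KO, and 0.964 and 1.18 in AhCre WT and 0.764 and 0.791 in KO. Against mt-Co1, mt-Nd1 and mt-Nd5 the ratio was also wholly lower in Villin KO. Under AhCre it was wholly lower against mt-Nd1 (0.561 and 0.661 in WT, 0.519 and 0.542 in KO). It overlapped there against mt-Co1 (0.301 and 0.428 in WT, 0.262 and 0.307 in KO) and mt-Nd5 (0.458 and 0.529 in WT, 0.415 and 0.463 in KO). A ratio within a library shows unequal change and does not say which gene changed. mt-Co1 took 27.9%, 33.2% and 35.7% in Villin WT and 39.0% and 42.6% in KO. Under AhCre it took 31.1% and 27.0% in WT and 32.5% and 29.9% in KO, with overlap. The share of mt-Nd4 was wholly lower in KO under AhCre only. That of mt-Nd3, on 36 to 200 counts, was wholly lower under AhCre and wholly higher under Villin. The remaining members overlapped in both arms.

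On the CPM scale mt-Co1 read 8573, 6571 and 8792 in Villin WT and 8808 and 8250 in KO (0.10), and mt-Nd1 6941, 3639 and 4780 against 4197 and 3350 (-0.44). mt-Nd5 read 2716, 2583 and 3299 CPM in Villin WT and 2459 and 2011 CPM in KO (-0.36), wholly lower. The 5 members with little shared sequence were all below 0 in Villin KO, with a median of -0.36.

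**Figure D4:**
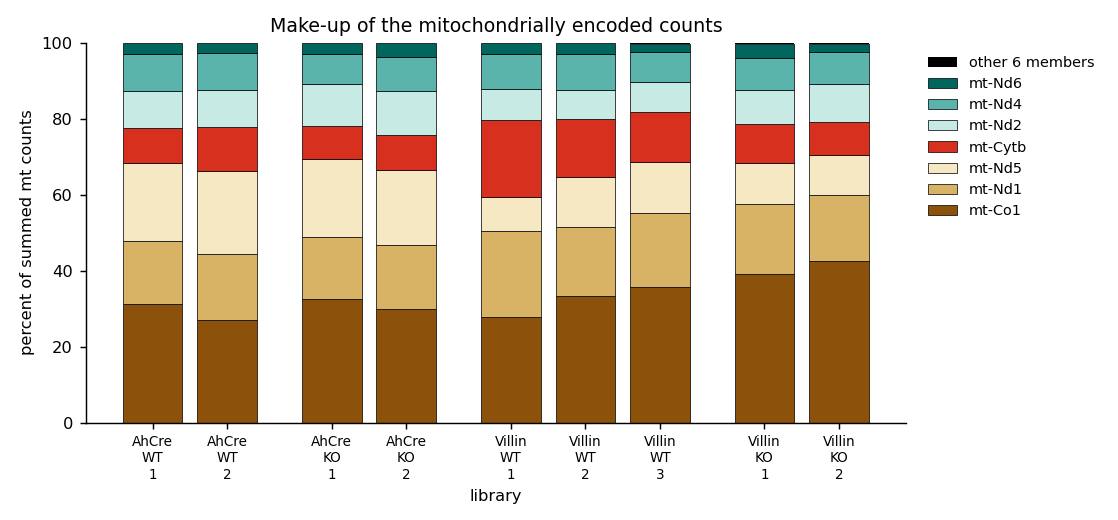
Make-up of the mitochondrially encoded counts in each library, as the percent of the summed counts of the 13 members, stacked by gene. The mt-Cytb segment is 13.2% to 20.2% for the Villin WT libraries, against 8.89% and 10.1% for KO, and the 6 little-counted members stay at 0.272% or less.

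The clearest member-wide difference lay between the WT groups of the 2 drivers, which also differ in agent and depth and cannot be told apart from these. AhCre WT was lower than Villin WT for 8 of the 107 tested members and higher for 0 (edgeR; 7.58% of all genes were called, 4.04% higher and 3.53% lower). At an unadjusted p under 0.05, 76 members were lower and 2, Ndufaf6 and Sdhaf1, higher, against 16% and 13.3% of all genes (29.3% in both directions). AhCre WT libraries lay wholly below Villin WT libraries in 56 of 96 nuclear and 8 of 11 mitochondrial members, against 23.8% of all genes, and wholly above them in 2 nuclear members, against 26.5%. The Villin KO comparison above shares the Villin WT libraries with this one, and the AhCre KO comparison the AhCre WT libraries.

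The called nuclear members were Atp5l, Uqcrh, Cox6c and Sdhaf4. Uqcrh read 338 and 314 CPM in AhCre WT and 1218, 515 and 1743 CPM in Villin WT (log2 difference -1.83, SE 0.46, edgeR adjusted p = 0.0352). Atp5l read 22.6 and 19.7 CPM against 78.5, 33.7 and 95.2 CPM (-1.71, SE 0.41, edgeR adjusted p = 0.0310). Cox6c, a small subunit of complex IV, read 321 and 290 CPM against 1090, 441 and 1330 CPM (-1.64, SE 0.44, edgeR adjusted p = 0.0419). Sdhaf4, an assembly factor of complex II, read 26.8 and 24.7 CPM against 78.5, 35.9 and 78.0 CPM (-1.31, SE 0.37, edgeR adjusted p = 0.0495). In each of the 4, Villin WT 2 was the lowest of its group and lay nearest to AhCre.

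The called mitochondrial members were mt-Nd3, mt-Cytb, mt-Nd1 and mt-Co1. mt-Cytb read 1100 and 1045 CPM in AhCre WT against 6217, 3003 and 3252 CPM in Villin WT (-1.95, SE 0.40, edgeR adjusted p = 0.0193). mt-Nd1 differed by -1.53 (edgeR adjusted p = 0.0318) and mt-Co1 by -1.39 (edgeR adjusted p = 0.0352). mt-Nd3 differed by -2.74 (edgeR adjusted p = 0.0126) on 62 and 51 counts against 182, 85 and 184. Of all 11 mitochondrial members tested, 11 were below 0, with a median of -1.12, as were 91 of 96 nuclear members, with a median of -1.09. The gene-wide median was -0.07, with 47.1% of genes above 0. Without TMM factors these medians were -0.65, -0.57 and 0.38.

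Absorptive enterocyte markers differed between the same groups, with 7 of 22 called lower in AhCre WT, at 17694 and 15736 CPM summed against 44521, 30607 and 47480 CPM in Villin WT; their part in the members' values was not tested. The 6 genes kept as signs of RNA quality (Malat1, Neat1, mt-Rnr1, mt-Rnr2, Gapdh and Actb) also lay lower in AhCre WT, at 14180 and 10465 CPM summed against 34749, 22079 and 44190 CPM, with 6 of 6 below 0, a median of -1.21, 5 wholly lower and 2 called lower (mt-Rnr1 and Actb). Crypt base stem cell markers went the other way, with 13 of 14 above 0, 3 called higher and 1 lower. Over all genes, 4.04% were called higher, 3.53% were called lower and 23.8% lay wholly lower. The part of these lists in the members' values was not tested either.

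The number of members called, given here without the gene-wide share in each fit, rests on single libraries. It was 80 without Villin WT 2 and 0 without either AhCre WT library. It was 2 without either AhCre KO library, 1 without Villin WT 1 and 3 without Villin WT 3.

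The WT difference followed coding length over the whole transcriptome. For all tested genes the median log2 difference, AhCre WT minus Villin WT, was -0.89 for coding sequences of up to 300 bases, -0.67 above that and up to 600, -0.36 up to 900, -0.05 up to 1500 and 0.35 over 1500. The nuclear members followed the same order below it, at -1.30, -1.11, -0.96, -0.48 and -0.03. Of the 92 protein-coding nuclear members, 22 were in the shortest bin and 46 in the next, where all genes together were lowest in AhCre WT. Set against genes of like coding length, their median was -0.43, with 10 of 92 above 0. With offsets that remove each library's length trend, edgeR called 6 members lower in AhCre WT and 0 higher. The gene-wide share called under these offsets is not given here. Of the 4 nuclear members called above, Atp5l was the only one still called, at -1.05 (adjusted p = 0.0452), and Uqcrh, Cox6c and Sdhaf4 were not. The other 5 were mt-Nd3, mt-Cytb, mt-Nd1, mt-Co1 and mt-Nd4. Villin WT 2 had the length profile of the AhCre libraries: genes of up to 300 coding bases lay at a median of -0.48 there, relative to each gene's mean over the 9 libraries, at -0.44 and -0.39 in AhCre WT, and at 0.61 and 0.82 in the other 2 Villin WT libraries.

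The Villin KO comparison did not follow length in this way over all genes, with medians of -0.10, -0.08, -0.02, 0.06 and -0.16. These medians include Villin WT 2. For genes of up to 300 coding bases, Villin KO lay at 0.14 and 0.40, between Villin WT 2 (-0.48) and the other Villin WT libraries (0.61 and 0.82). Over 1500 bases it lay at -0.16 and -0.34, against -0.28, 0.13 and -0.22 in Villin WT. The length trend of this comparison without Villin WT 2 was not tested. The members' medians were 0.16, 0.13, 0.29 and 0.22 up to 1500 bases and 0.94 for the 4 members over 1500 bases. These 4 were Ndufs1 (2181 bases), Sdha (1992), Atp5a1 (1659) and Atp5b (1587), all named above as higher. Over the 92 members the log2 difference had a Spearman correlation of 0.24 with coding length. Against genes of like length the members' median was 0.27 (76 of 92 above 0). Whether length or the function of a subunit goes with the higher values was not tested. Under AhCre the members' medians ran from 0.20 to -0.15 over the first 4 bins, near those of all genes (0.19 to -0.05), and the value against genes of like length was 0.03. With the same offsets, edgeR called 4 members in Villin KO: Ndufs1 (1.18, adjusted p = 0.0306), Sdha (1.12, 0.0224), Atp5a1 (1.04, 0.0259) and Ndufaf6 (-2.16, 0.0426). Here too the gene-wide share is not given.

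**Figure D5:**
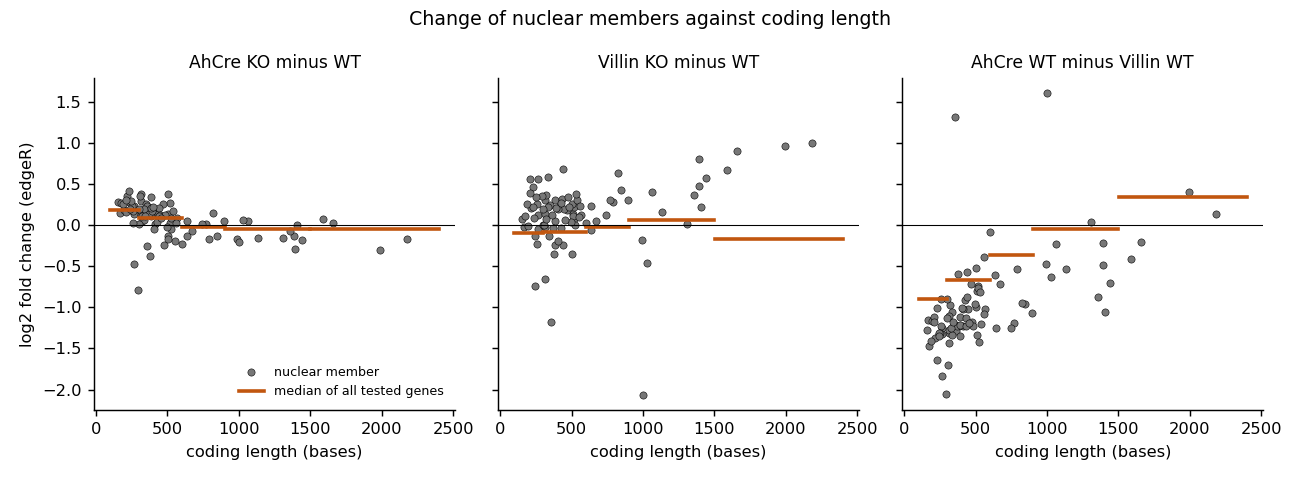
Log2 difference of each nuclear protein-coding member against its coding length in bases, for AhCre KO over WT, Villin KO over WT and AhCre WT over Villin WT, with the median of all tested genes in each of 5 length bins. In the right panel both the members and all genes run upward from the shortest bin (medians -1.30 and -0.89) to the longest (-0.03 and 0.35); in the middle panel the medians of all genes show no such slope, and the members have theirs at 0.13 to 0.29 up to 1500 bases and 0.94 beyond.

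Genes around the respiratory chain were read from fixed lists in the same fits. Of 18 genes of the TCA cycle and pyruvate dehydrogenase, which feed electrons to complexes I and II, 5 rose in Villin KO and 0 fell, against 3.33% of all genes called higher and 2.88% lower, and the median was 0.71 (gene-wide -0.18). Cs, citrate synthase, read 504, 620 and 692 CPM in Villin WT and 1846 and 1335 CPM in KO (1.39, SE 0.30, edgeR adjusted p = 0.0249). Dlst (1.35), Ogdh (1.09) and Sucla2 (1.06), which act between 2-oxoglutarate and succinate, were also among them. Both KO libraries were above every WT library for Cs, while under AhCre the list had a median of -0.16 and 0 calls, with 15 of 18 below 0.

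Of 12 tested genes listed under carriers and uncoupling, 0 passed in either arm, with medians of 0.65 in Villin KO and 0.04 under AhCre. Slc25a4, an ADP/ATP carrier, had the value 1.16 in Villin KO (edgeR adjusted p = 0.106). Of 30 genes that replicate, transcribe and process mitochondrial DNA and RNA, 1 fell in Villin KO, against 2.88% of all genes called lower, and the median was -0.39 (gene-wide -0.18). That gene was Elac2, which trims the 3′ ends of mitochondrial tRNAs, at 8.99, 12.6 and 7.13 CPM in WT and 2.05 and 2.93 CPM in KO (log2 difference -1.93, SE 0.46, edgeR adjusted p = 0.0324). Of 35 tested assembly factors outside the naming rule 0 passed in either arm, with medians of -0.10 in Villin KO and -0.05 under AhCre. Cox15, which makes the haem A of complex IV, had the value 1.00 in Villin KO (edgeR adjusted p = 0.0785). Of 19 tested regulators of mitochondrial biogenesis 0 passed, with medians of 0.23 and -0.06. Hif1a, the oxygen-regulated transcription factor, had the value 1.45 in Villin KO (edgeR adjusted p = 0.0516).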

How the data were processed

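The authors deposited whole-number read counts per gene, 1 table per library. Reads were processed with STAR 2.7, featureCounts and DESeq2 1.20 on mm10 (GRCm38), per the submitters' processing notes; annotation, strand setting and handling of multimapping reads: not given in the sources used here. The 55341 symbols of each table matched GENCODE M21. Samples were grouped by driver and genotype from their labels.

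Counts were tested with edgeR 4.0.16 in R 4.3.3 (filterByExpr, TMM, quasi-likelihood F-test on 1 fit of 4 groups and 9 libraries; 16250 genes, 5 residual degrees of freedom, prior 7.43, common biological coefficient of variation 0.332), with 4 contrasts and Benjamini-Hochberg adjustment over all tested genes at 0.05. SE is the log2 fold change over the square root of F. Shares were compared by exact permutation (scipy 1.17.1). Alternatives used DESeq2 1.42.0, limma 3.58.1, other scalings and filters, a replicate block and each library left out. Scripts were tested on simulated data.

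The genes named were the mitochondrial members, members called in any contrast, the 4 highest and lowest nuclear members per driver, core subunits of each complex, tissue-restricted isoforms, and list genes called or with the smallest p; Sdhc, Sdhd and Ogdh, and genes called only under an alternative, were added after their values were seen. Some items are not reported here. Members and lists were chosen with earlier results of these data known.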

Additional observations from a re-analysis of the deposited data

How the results depend on the processing

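The members called in AhCre KO stayed at 0 under every setting run. In Villin KO the count went from 0 to 2 without a low-count filter, 6 with DESeq2, 2 without TMM factors and 4 with coding-length offsets, and ranged from 0 to 4 with 1 library left out. For the difference of the KO effects it went from 0 to 1 without a low-count filter (Ndufa4l2). Between the WT groups it went from 8 to 48 without a filter, 49 with DESeq2, 78 with limma-voom and 1 in a fit of the compared groups alone, and ranged from 0 to 80 with 1 library left out. The cause was not tested. The share of all genes called under each setting is not given beside these counts, so they are not read against a background.

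Replicate numbers were not shown to pair libraries: the deviations of same-numbered libraries correlated at -0.133 under AhCre and at 0.0702 and -0.209 under Villin. With a replicate block 0 members were called in either KO comparison and 3 between the WT groups; crossing the numbers under AhCre also called 0.

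With 1 library left out, the log2 difference of the mitochondrial share ranged from -0.302 to 0.0640 under AhCre, from -0.655 to -0.454 under Villin, from -0.432 to -0.249 over both and from -0.979 to -0.613 between the WT groups. The nuclear share ranged from -0.0738 to 0.142, from -0.160 to 0.172, from -0.0630 to 0.103 and from -0.645 to -0.313, and the ratio from -0.358 to 0.0517, from -0.827 to -0.419, from -0.490 to -0.281 and from -0.575 to -0.158. Signs turned without AhCre WT 1 (mitochondrial share and ratio, AhCre), without AhCre KO 2 (nuclear share, AhCre, and both drivers at -0.0109) and without Villin WT 2 (nuclear share, Villin and both drivers).

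The settings without TMM factors, with coding-length offsets, with crossed numbers and with the mitochondrial members of little shared sequence were chosen after seeing the data. Over that last sum, the Villin difference in mitochondrial share was -0.78 (exact permutation p = 0.1) and that over both drivers -0.46 (exact permutation p = 0.0333, adjusted p = 0.2).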
